A study of Homo sapiens with 60 samples.

Results

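The follistatin, activin and TGF-beta pathway was followed through 10 genes in MDA-MB-231, an established cell line from triple-negative breast cancer, under treatment with the compound BAY2506856. The 10 genes were taken by name from a table of 38342 gene names: the extracellular antagonists FST, FSTL1 and FSTL3, the ligand genes INHBA, TGFB1 and TGFB2, the receptors TGFBR1 and TGFBR2, and the signal carriers SMAD3 and SMAD7. All 10 were in the table, and 9 passed a filter of at least 1 FPKM (fragments per kilobase and M reads, a level adjusted for gene length and depth) in at least 3 libraries. INHBA did not pass it. Cells received DMSO, the vehicle, or 100, 300 or 1000 nM of the compound for 1, 3, 6 or 24 h, which gave 16 groups and 60 libraries: 6 DMSO libraries at each time and 3 libraries of every dose at each time. No other agent or genetic change is given for any group. Times were taken from the labels of the samples, since the design text of the series names a harvest at 24 h only.

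Ligands of the TGF-beta family, among them the TGF-betas and the activins, are secreted dimers that bring together type I and type II serine/threonine kinase receptors at the cell surface. The type I receptor then phosphorylates receptor SMADs such as SMAD3, which enter the nucleus with SMAD4 and regulate target genes. Follistatin, the product of FST, binds and neutralizes activins in the extracellular space, and SMAD7 is an inhibitory SMAD that blocks the activated type I receptor. In breast cancer cells of mesenchymal type, TGF-beta signalling is known for its part in migration, invasion and matrix production.

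Of the 9 members past the filter, only FST and TGFB2 were lower at all doses at 6 h with limma adjusted p under 0.05. The bases before their start sites are shown for that reason. The promoter windows come from RefSeq (GRCh38.p14), which held all 10 genes. Each is the 250 bases before the start site, 5′ to 3′ on the plus strand, at chr5:53480379-53480628 for FST and chr1:218345086-218345335 for TGFB2. Capitals mark matches to the motifs searched, and position -1 is the last base printed.
FST: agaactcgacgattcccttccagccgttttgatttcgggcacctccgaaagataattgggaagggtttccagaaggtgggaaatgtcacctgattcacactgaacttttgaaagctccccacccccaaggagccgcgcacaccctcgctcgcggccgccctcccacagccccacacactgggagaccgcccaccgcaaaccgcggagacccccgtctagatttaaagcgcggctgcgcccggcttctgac
TGFB2: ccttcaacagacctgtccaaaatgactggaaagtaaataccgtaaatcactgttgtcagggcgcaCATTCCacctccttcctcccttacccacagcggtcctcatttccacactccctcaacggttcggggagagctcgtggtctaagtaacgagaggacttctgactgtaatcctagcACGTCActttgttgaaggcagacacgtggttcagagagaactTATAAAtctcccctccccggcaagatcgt

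The motif searched for TEAD factors was GGAATG. For SMAD proteins it was GTCTAGAC, which reads the same on both strands. The AP-1 motif was TGACTCA. The letters TGACGT, named CRE here, are only part of a full CRE site. These were searched on both strands, and the TATA motif, with the letters TATAAA, on the gene's strand only. They were chosen with these windows in view. The TGFB2 window held the TEAD letters on the opposite strand from position -185, the CRE letters on the opposite strand from -71 and TATA from -29, and the FST window held none of the motifs. Windows of the other members were searched too, some genes having several. The TEAD letters also lay in a window of TGFBR1 (from -132), a member that was higher at 24 h. AP-1 lay in a window of SMAD3 (-56), and TATA in windows of INHBA (-11) and SMAD7 (-35). Over 35116 promoter windows of the same length, 11.9% held the TEAD letters, 7.10% CRE, 6.80% TATA, 4.20% AP-1 and 0.182% SMAD. A match describes letters in a window and is not evidence of a bound site.

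Judged by levels of 11 pseudogenes and of the mitochondrial gene MT-ND6, the libraries form 3 types with no counterpart in the labels. There were 41 libraries in the first type and 13 in the second, which include 2 of the 3 libraries of 1000 nM at 24 h. The third held 6, all DMSO at 1 and 3 h. Because of this, values within a type or from a fit with a term for each type stand beside the results they touch. Depth, as whole reads recovered from the table, was 0.475 to 86.5 M per library with a median of 11.2 M. Over all libraries VIM, CD44, AXL, EGFR and KRT18, known for this line, had 20.4 FPKM or more, while SPARC, also listed as present, had at most 0.450. Of the markers listed as low or absent, ESR1 was at 0 in 59 libraries, PGR had at most 0.0128 FPKM and CDH1 at most 1.09. EPCAM and GATA3, of the same list, were present in every library, at 4.43 to 16.3 and 1.34 to 5.58 FPKM. The leukocyte marker CD3E was at 0 in 60. At 24 h the summed level of the 5 leukocyte markers, 4 of them in the table, was 0 to 2.23 FPKM in DMSO and 0.838 to 2.31 at 1000 nM. That of the 7 fibroblast and muscle markers was 1.28 to 3.17 and 2.13 to 2.88. That of the 4 endothelial markers, 3 of them in the table, was 0.614 to 1.12 and 0.316 to 0.575. Over all libraries VWF and CDH5 had at most 0.0380 and 0.0208 FPKM, and KDR had 0.315 to 1.24. KDR had a log2 change of -0.47 at 1000 nM and 24 h (limma adjusted p = 0.0031). Of the line's own markers AXL had a log2 change of -1.28, KRT18 of -0.46, CD44 of 0.45 and VIM of 0.29 at 1000 nM and 24 h. Of markers listed as low or absent, EPCAM differed there by 0.74 and CDH1 by 0.61, both higher, and GATA3 by -0.62; their part in the results was not tested. In these bulk samples fewer expressing cells and less RNA per cell cannot be told apart. The labels do not state whether replicates came from separate cultures, so the p-values reflect the spread among libraries, which may be technical.

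Differences were tested with limma on log2(FPKM + 0.5) in 15866 genes, and a gene was called at a Benjamini-Hochberg adjusted p under 0.05. Ranges of treated and DMSO libraries are given beside the tests as description only. The share of all genes whose ranges lay apart was not computed. No member was called by limma at 1 or 3 h, where 0% and 0.0693% to 0.132% of all genes were called (0.0693%, 0.126% and 0.132% at 100, 300 and 1000 nM at 3 h). At an unadjusted p under 0.05, TGFB2 stood apart at 1000 nM and 1 h (0.27), FST and TGFB2 at 100 and 300 nM and 3 h (-0.24 to -0.22), and FST at 1000 nM and 3 h. Of the 15866 genes, 809, 192 and 1637 passed that unadjusted level at 1 h and 933, 933 and 1176 at 3 h (at 100, 300 and 1000 nM). With a term for each library type the TGFB2 change at 1000 nM and 1 h was 0.13 and did not pass that level, and it was 0.21 within the first type and -0.06 within the second. At 3 h all libraries of 100 and 300 nM were of the first type. Within that type the changes at these doses were -0.11 and -0.12 for FST and -0.17 and -0.20 for TGFB2. The limma-voom fit on recovered reads called no member at 1 h and 1 at 3 h, FST at 1000 nM. At 6 h, 2, 3 and 2 of the 9 tested members were called at 100, 300 and 1000 nM, beside 0.863%, 1.67% and 2.01% of all genes tested. At 24 h, 6 of 9 were called at each dose, beside 19.7%, 30.7% and 34.7% of all genes. Of all genes, 10.5%, 16.5% and 19.1% were higher and 9.2%, 14.2% and 15.6% lower at these doses. The members moved in both directions at 24 h: FST, FSTL1 and TGFB2 were lower at each dose, and TGFBR1 and TGFBR2 were higher at each dose. The sixth call differed, being SMAD7 (higher) at 100 nM, TGFB1 (higher) at 300 nM and FSTL3 (lower) at 1000 nM. The median log2 change of the 9 members at 1000 nM and 24 h was 0.04, beside 0.03 over all genes tested. With a term for each library type, 7 of 9 were called at each dose at 24 h, beside 30.6%, 44.6% and 47.5% of all genes.

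**Figure D1:**
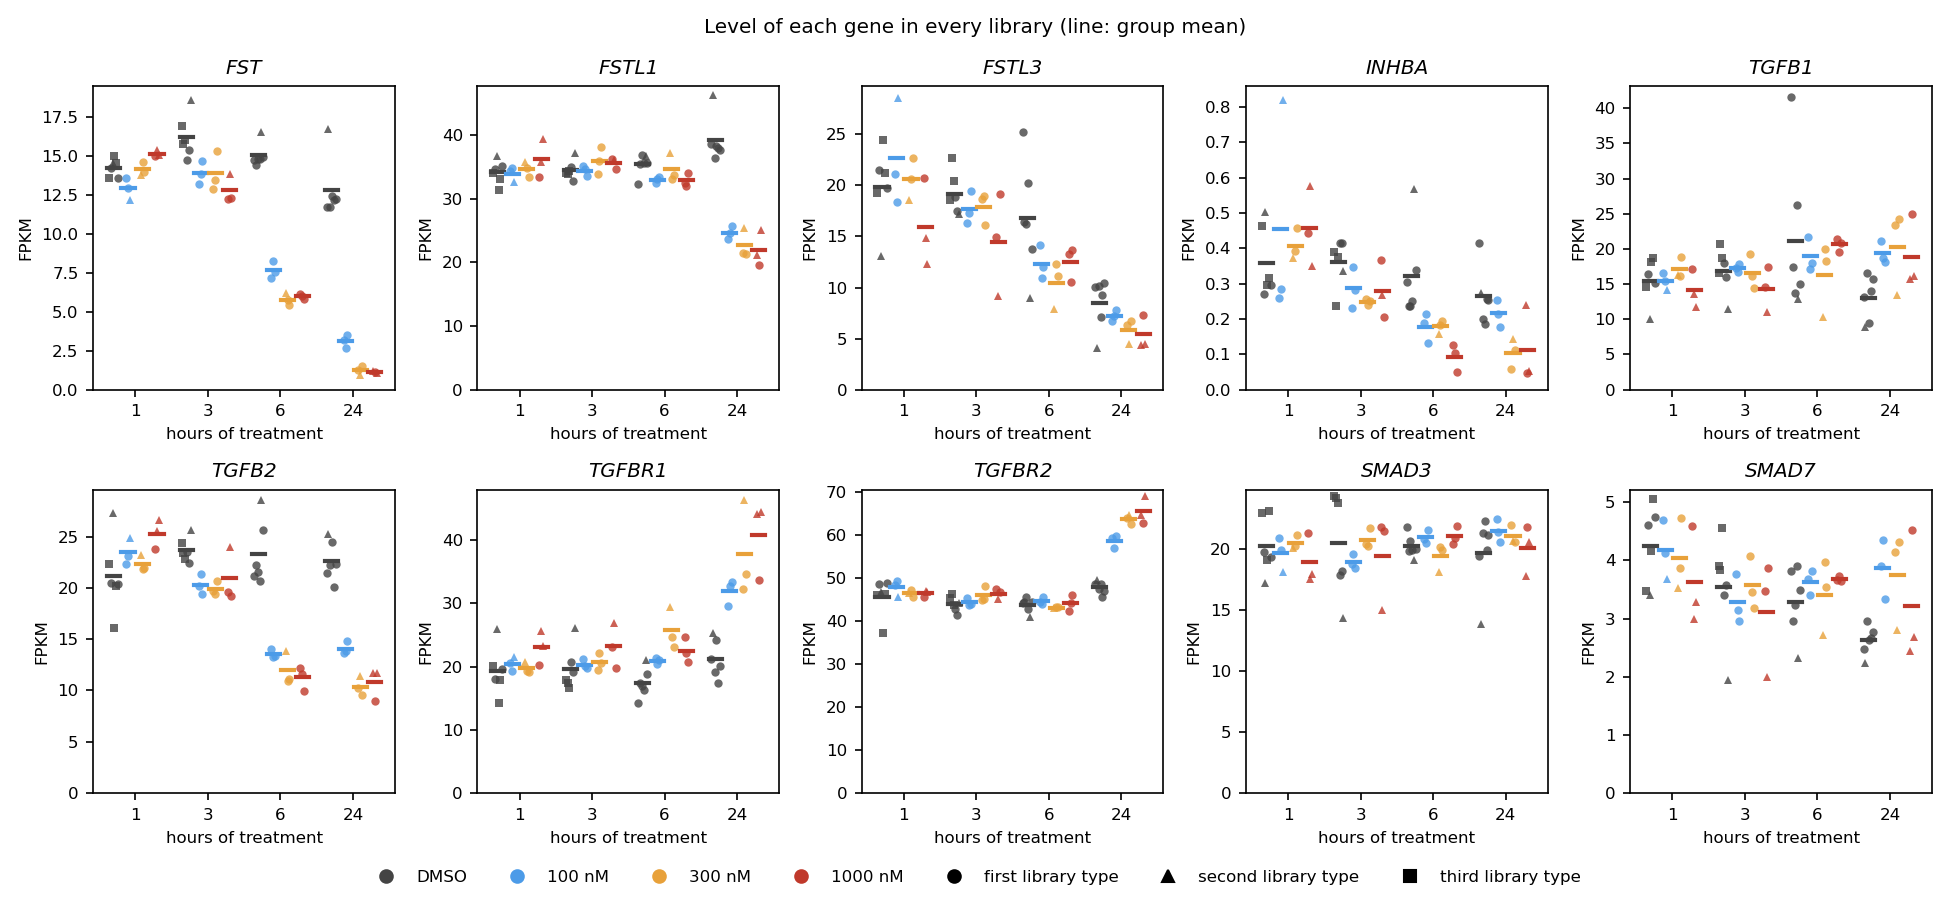
Level in FPKM (y axis, linear, from 0) of each of the 10 genes in every library by hours of treatment, with colour for dose, marker shape for library type and a line at each group mean. FST falls from a mean of 12.8 FPKM in DMSO to 1.14 at 1000 nM at 24 h, while TGFBR1 and TGFBR2 are higher than in DMSO at that time.

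FST, which encodes follistatin, had the largest fold of the members at 24 h. Its level in the DMSO libraries ran from a mean of 14.2 ± 0.567 FPKM at 1 h to 16.2 ± 1.36 at 3 h, 15.0 ± 0.766 at 6 h and 12.8 ± 1.92 at 24 h (SD, n = 6). At 1 h the means of the treated groups were 12.9 ± 0.697 FPKM at 100 nM, 14.1 ± 0.450 at 300 nM and 15.1 ± 0.227 at 1000 nM (SD, n = 3). The 100 nM libraries lay narrowly below all DMSO libraries at 1 h, and no comparison with DMSO was called at that time.

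At 3 h FST read 13.2, 13.8 and 14.6 FPKM at 100 nM, 12.9, 13.4 and 15.3 at 300 nM, and 12.2, 13.8 and 12.3 at 1000 nM. The DMSO libraries had a lowest value of 14.7, a median of 15.9 and a highest of 18.6 FPKM. The 1000 nM libraries lay below all DMSO libraries, the 100 nM libraries did so narrowly, and the 300 nM libraries overlapped them. The log2 change at 1000 nM was -0.33 (SE 0.085, limma adjusted p = 0.13), where 0.132% of all genes were called. It passed the threshold in 3 of 18 alternative settings. The lowest limma adjusted p was 0.0052, without the 3 libraries under 2 M reads, where the change was -0.39. Over the 18 settings the change was -0.39 to -0.28 and the adjusted p reached 0.97. Of the DMSO libraries at 3 h, 3 were of the third type, which held no treated library. Within the first type the change was -0.28 (2 libraries against 2) and within the second -0.42 (1 against 1).

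By 6 h FST was lower at every dose. The libraries read 7.17, 8.25 and 7.54 FPKM at 100 nM, 6.16, 5.74 and 5.40 at 300 nM, and 6.13, 6.00 and 5.78 at 1000 nM. In DMSO the lowest library had 14.4, the median was 14.8 and the highest 16.5 FPKM. No treated library reached the DMSO range, and no 300 or 1000 nM library reached the 100 nM range. The level was 1.90-fold lower at 100 nM (log2 change -0.93, SE 0.085, adjusted p = 3.6e-11), 2.48-fold lower at 300 nM (-1.31, adjusted p = 2.2e-16) and lower at 1000 nM by a similar amount (-1.26, adjusted p = 7.3e-16). The difference between 1000 and 100 nM at 6 h was -0.33 in log2 (95% interval -0.53 to -0.14) and was not called (adjusted p = 1), in a comparison that called 0.0189% of all genes.

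At 24 h the fall of FST was larger and followed dose up to 300 nM. The libraries read 3.20, 2.67 and 3.51 FPKM at 100 nM, 1.27, 0.915 and 1.49 at 300 nM, and 1.21, 1.14 and 1.06 at 1000 nM. The lowest DMSO library had 11.7, the median was 12.2 and the highest 16.7 FPKM, so that all 9 treated libraries lay below the DMSO range. The 100 nM libraries lay above all those of both higher doses, which overlapped each other. Counting limits the precision here, since the FST reads per library were 5 to 317 at 300 nM and 8 to 104 at 1000 nM.

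Against DMSO at 24 h, FST was 3.67-fold lower at 100 nM (log2 change -1.87, SE 0.085, adjusted p = 8.2e-23). It was 7.74-fold lower at 300 nM (-2.95, adjusted p = 1.3e-31) and 8.08-fold lower at 1000 nM (-3.01, adjusted p = 5.2e-32). These folds are on the scale of FPKM plus 0.5, which understates the change of low values. In order of level the groups at 24 h were DMSO, 100 nM, 300 nM and 1000 nM. The step from 100 to 300 nM was -1.08 in log2 (adjusted p = 2.5e-11), in a comparison that called 1.17% of all genes. The step from 300 to 1000 nM was not called, at -0.06 with a 95% interval of -0.26 to 0.14 (adjusted p = 0.91), where 0.0126% of all genes were called. At 1000 nM the change was -2.94 within the first library type (1 treated library against 5) and -3.39 within the second (2 against 1), so its direction was the same in both.

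The effect of 1000 nM on FST grew between times. From 3 to 6 h it changed by -0.93 in log2 (SE 0.12, adjusted p = 1.9e-06), where 0.227% of all genes were called. From 6 to 24 h it changed by a further -1.75 (SE 0.12, adjusted p = 3.9e-16), where 15.1% of all genes were called.

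FSTL1 encodes a secreted glycoprotein of the follistatin-like group, and it was lower at 24 h only among the times tested. The libraries at 24 h read 23.7, 24.5 and 25.7 FPKM at 100 nM, 21.4, 25.3 and 21.3 at 300 nM, and 21.2, 19.5 and 25.1 at 1000 nM. DMSO had a lowest of 36.5, a median of 38.2 and a highest of 46.4 FPKM. All treated libraries lay below the DMSO range, while the 3 doses overlapped one another. The fold was 1.58 at 100 nM, 1.72 at 300 nM and 1.77 at 1000 nM, all lower (log2 changes -0.66, -0.78 and -0.83, SE 0.065, adjusted p = 6.3e-11, 8e-14 and 8.3e-15).

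At 6 h FSTL1 averaged 35.5 ± 1.64 FPKM in DMSO (SD, n = 6) and 32.9 ± 1.13 at 1000 nM (SD, n = 3), a log2 difference of -0.11 with a 95% interval of -0.24 to 0.02. The effect at 24 h differed from that at 6 h by -0.72 (adjusted p = 5.2e-08). Between 1000 and 100 nM at 24 h the difference was -0.17 and not called (adjusted p = 0.18), in a comparison that called 4.94% of all genes. With library type terms it was -0.26 and called (adjusted p = 0.0035), and the share of all genes called in that fit was not computed.

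FSTL3, a secreted follistatin-like inhibitor that binds activins and myostatin, had a standard error of 0.23 in its log2 changes with DMSO, the largest of the 3 antagonists. In DMSO it fell with time, from a mean of 19.9 FPKM at 1 h to 8.51 ± 2.50 at 24 h (SD, n = 6; log2 change -1.21, SE 0.19, adjusted p = 3.9e-06). In that comparison of vehicle cells 18.2% of all genes were called. At 24 h the libraries read 6.71, 7.18 and 7.79 FPKM at 100 nM, 6.29, 4.43 and 6.70 at 300 nM, and 4.40, 7.34 and 4.51 at 1000 nM, against 4.04 to 10.5 in DMSO with a median of 9.66. Every dose overlapped DMSO.

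The log2 change of FSTL3 at 1000 nM and 24 h was -0.58 (SE 0.23, adjusted p = 0.046). The call did not hold with library type terms, where the change was -0.31 (adjusted p = 0.14). Within the first type it was -0.33 (1 treated library against 5) and within the second 0.13 (2 against 1), the opposite sign. The DMSO library of the second type held only 6 FSTL3 reads, too few to fix that sign. Leaving out DMSO replicate 1, 3, 5 or 6, or 1000 nM replicate 1 or 3, also ended the call, with changes of -0.55 to -0.46 and adjusted p of 0.077 to 0.21. It was also lost with no filter, with only the groups compared and with voom (adjusted p = 0.085, 0.22 and 0.051). At 6 h no dose was called over all libraries, and in the first type alone all doses were, with changes of -0.53, -0.60 and -0.52 at 100, 300 and 1000 nM and 3.37%, 4.83% and 7.7% of all genes called. In that type DMSO replicate 1 stood highest at 25.2 FPKM, and the other DMSO libraries had 13.8 to 20.2. Over all libraries, leaving out 1 library gave -0.53 to -0.24 at 100 nM and -0.52 to -0.23 at 1000 nM. The fit in the first type was not repeated with libraries left out.

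TGFB2, a TGF-beta ligand, fell by 6 h and kept about that level of difference at 24 h. At 6 h it read 14.0, 13.2 and 13.3 FPKM at 100 nM, 13.9, 10.9 and 11.1 at 300 nM, and 12.2, 11.6 and 10.0 at 1000 nM. In DMSO the lowest library had 20.7, the median was 21.9 and the highest 28.6 FPKM. Treated libraries at all doses lay below the DMSO range. The log2 changes were -0.75, -0.93 and -1.01 (SE 0.10, adjusted p = 1.4e-06, 4e-09 and 3.3e-10), which is 2.02-fold lower at 1000 nM.

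At 24 h TGFB2 read 13.6, 13.8 and 14.8 FPKM at 100 nM, 10.2, 11.4 and 9.58 at 300 nM, and 11.7, 8.99 and 11.7 at 1000 nM. DMSO had 20.1 to 25.3 with a median of 22.3. The ranges of treated and DMSO libraries did not overlap, and the 100 nM libraries lay above those of both higher doses. The log2 changes were -0.66, -1.09 and -1.04 (adjusted p = 2e-06, 2.6e-12 and 7.9e-12). The change of the 1000 nM effect from 3 to 6 h was -0.83 (adjusted p = 0.00084). From 6 to 24 h it was -0.03 with a 95% interval of -0.32 to 0.26 and was not called. The difference between 1000 and 100 nM at 24 h missed the threshold at -0.38 (adjusted p = 0.0502), where 4.94% of all genes were called. It passed with library type terms at -0.54 (adjusted p = 9.2e-06), and the share of all genes called in that fit was not computed. A gene annotated on the opposite strand, TGFB2-AS1, had 0 to 2.41 FPKM over the 60 libraries. The libraries were stranded, but the sources used here do not say whether counting used strand.

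TGFB1, the ligand best known from this family, was higher than in DMSO at 24 h by amounts near the threshold. The libraries read 21.1, 18.7 and 18.2 FPKM at 100 nM, 23.4, 13.4 and 24.2 at 300 nM, and 15.7, 24.9 and 16.1 at 1000 nM. DMSO had 8.93 to 16.6 with a median of 13.6. The 100 nM libraries lay above the DMSO range and those of the other doses overlapped it. The log2 changes were 0.59, 0.62 and 0.53 (SE 0.24) with adjusted p = 0.081, 0.047 and 0.087.

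The low TGFB1 values among treated libraries at 24 h were those of the second library type. With library type terms the changes were 0.50, 0.71 and 0.80, all called (adjusted p = 0.029, 0.0011 and 0.00032). At 1000 nM the change was 0.85 within the first type (1 treated library against 5) and 0.80 within the second (2 against 1). The DMSO library of the second type held 14 TGFB1 reads. The call at 300 nM over all libraries was lost on leaving out 300 nM replicate 1 or 3 or DMSO replicate 1, 2 or 4, with changes of 0.47 to 0.63, and with no filter, median-of-ratios scaling or only the groups compared (adjusted p = 0.087, 0.051 and 0.14). At 6 h DMSO replicate 1 stood at 41.5 FPKM, where the other 5 DMSO libraries had 12.8 to 26.3, and no dose was called.

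INHBA encodes the subunit of activin A, the ligand that follistatin neutralizes. It had 0.0475 to 0.821 FPKM over the 60 libraries, from 1 to 142 reads per library, and never reached 1 FPKM. At 6 h it read 0.187, 0.214 and 0.131 FPKM at 100 nM, 0.157, 0.183 and 0.195 at 300 nM, and 0.125, 0.103 and 0.0510 at 1000 nM, and 0.235 to 0.568 in DMSO. No treated library at 6 h reached the DMSO range, and the share of all genes with ranges apart was not computed. In a fit without the filter the log2 change at 1000 nM was -0.46 (SE 0.12, adjusted p = 0.043), where 1.36% of all genes were called. The added 0.5 is larger than most INHBA levels, so this change is understated. The 1000 nM libraries held 13, 9 and 3 INHBA reads. The highest DMSO value, 0.568 FPKM, was a library of the second type, and within the first type the change was -0.38 (3 libraries against 5). This call was not tried with library type terms or with libraries left out. At 24 h the changes were -0.09, -0.33 and -0.33, and none was called.

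**Figure D2:**
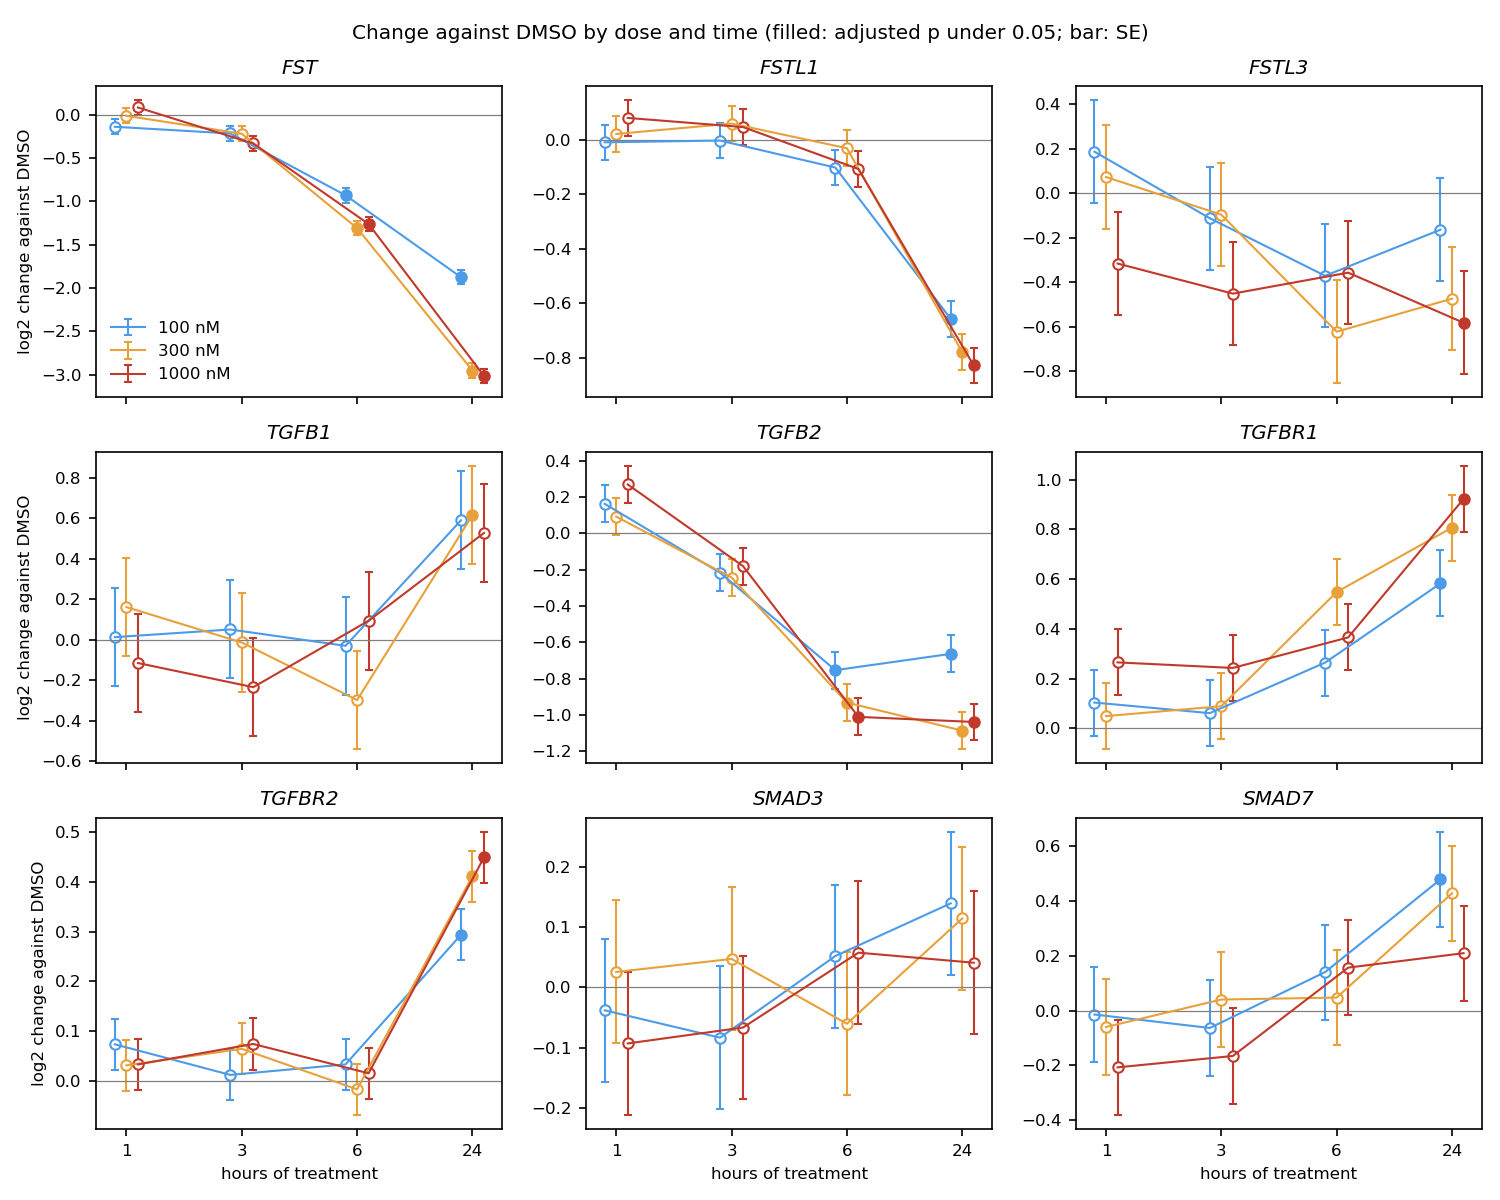
Log2 change against DMSO of the same time (y axis) by hours of treatment for the 9 tested genes, with a colour for each dose and limma's standard error as bars. Filled points have an adjusted p under 0.05: at 6 h FST and TGFB2 are filled at all doses and TGFBR1 at 300 nM, and at 24 h FST, FSTL1, TGFB2, TGFBR1 and TGFBR2 are filled at all doses, SMAD7 at 100 nM, TGFB1 at 300 nM and FSTL3 at 1000 nM.

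TGFBR1, the type I receptor kinase for TGF-beta, was higher at 24 h at all doses. It read 29.6, 32.7 and 33.3 FPKM at 100 nM, 32.3, 46.4 and 34.6 at 300 nM, and 44.1, 33.6 and 44.4 at 1000 nM. DMSO had a lowest of 17.4, a median of 20.7 and a highest of 25.4 FPKM. All treated libraries lay above the DMSO range. The level was 1.75-fold higher at 300 nM and 1.90-fold higher at 1000 nM (log2 changes 0.58, 0.81 and 0.92 over the 3 doses, SE 0.13, adjusted p = 0.00088, 2.9e-06 and 1.7e-07).

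The 3 highest TGFBR1 values at 24 h were libraries of the second type, and the highest DMSO library was of that type too. Within the first type the change at 1000 nM was 0.71 and within the second 0.79, and with type terms it was 0.77 (adjusted p = 1.1e-10). At 6 h the change was 0.55 at 300 nM (adjusted p = 0.013), a call lost without 300 nM replicate 1 (0.45, adjusted p = 0.23) and with only the groups compared (adjusted p = 0.19). The changes at 100 and 1000 nM at 6 h were 0.26 and 0.37 and were not called. With type terms the 3 doses at 6 h gave 0.32, 0.50 and 0.42, all called (adjusted p = 0.02, 2.5e-05 and 0.00037), where 2.17%, 4.68% and 4.65% of all genes were called. That fit was not repeated with libraries left out. Without type terms, leaving out 1 library gave 0.21 to 0.32 at 100 nM and 0.30 to 0.42 at 1000 nM. The lowest DMSO library at 6 h was replicate 1, of the first type, at 14.2 FPKM. The 1000 nM effect at 24 h exceeded that at 6 h by 0.56 over all libraries (adjusted p = 0.035). All 1000 nM libraries at 6 h were of the first type, and 2 at 24 h were of the second. Within the first type the effect was 0.42 at 6 h and 0.71 at 24 h, the latter from 1 treated library.

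TGFBR2, the type II receptor that binds TGF-beta and activates the type I receptor, had the highest level of the members per length. At 24 h it read 59.3, 57.0 and 59.8 FPKM at 100 nM, 64.0, 64.6 and 62.6 at 300 nM, and 64.7, 62.7 and 69.0 at 1000 nM. DMSO had 45.7 to 49.6 FPKM with a median of 47.9, below every treated library. The folds were 1.23, 1.33 and 1.37 (log2 changes 0.29, 0.41 and 0.45, SE 0.051, adjusted p = 2.2e-05, 7.6e-09 and 6.5e-10).

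At 6 h TGFBR2 averaged 43.6 ± 1.64 FPKM in DMSO (SD, n = 6) and 44.1 ± 1.90 at 1000 nM (SD, n = 3), and the log2 difference of 0.02 had a 95% interval of -0.09 to 0.12. The 1000 nM effect changed by 0.43 between 6 and 24 h (adjusted p = 1.3e-05). At 24 h the change at 1000 nM was 0.40 within the first library type and 0.43 within the second. The difference of 0.16 between 1000 and 100 nM at 24 h was not called (95% interval 0.04 to 0.28, adjusted p = 0.12).

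SMAD3, the receptor SMAD of the TGF-beta and activin branch, was not called in any comparison with DMSO. At 24 h it averaged 19.7 ± 3.04 FPKM in DMSO (SD, n = 6), 21.5 ± 0.977 at 100 nM, 21.1 ± 0.776 at 300 nM and 20.1 ± 2.05 at 1000 nM (SD, n = 3). The log2 difference at 1000 nM was 0.04 with a 95% interval of -0.20 to 0.28. All dose ranges overlapped DMSO, in which replicate 2, the library of the second type, was lowest at 13.8 FPKM.

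SMAD7, the inhibitory SMAD whose gene is itself induced by TGF-beta signalling, had the second lowest level of the members. In DMSO it went from 4.24 FPKM at 1 h to 2.62 ± 0.245 at 24 h (SD, n = 6; log2 change -0.59, adjusted p = 0.0020). At 24 h it read 3.90, 4.35 and 3.34 FPKM at 100 nM, 4.14, 2.80 and 4.32 at 300 nM, and 2.44, 4.52 and 2.68 at 1000 nM, against 2.24 to 2.95 in DMSO. The 100 nM libraries lay above the DMSO range and the other doses overlapped it. The log2 changes were 0.48, 0.43 and 0.21 (SE 0.17) with adjusted p = 0.044, 0.055 and 0.38.

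The SMAD7 call at 100 nM was lost on leaving out 100 nM replicate 1 or 2 or DMSO replicate 1, 2, 4 or 5, with changes of 0.40 to 0.48. It was also lost with no filter, with median-of-ratios scaling and without libraries under 2 M reads (adjusted p = 0.081, 0.0502 and 0.053). The 3 lowest treated SMAD7 values at 24 h were of the second library type, as was the lowest DMSO library. With type terms the changes were 0.40, 0.51 and 0.44, all called (adjusted p = 0.0023, 8.1e-05 and 0.00063). Within the first type the change at 1000 nM was 0.65 (1 treated library against 5) and within the second 0.16 (2 against 1). The DMSO library of the second type held 4 SMAD7 reads.

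**Figure D3:**
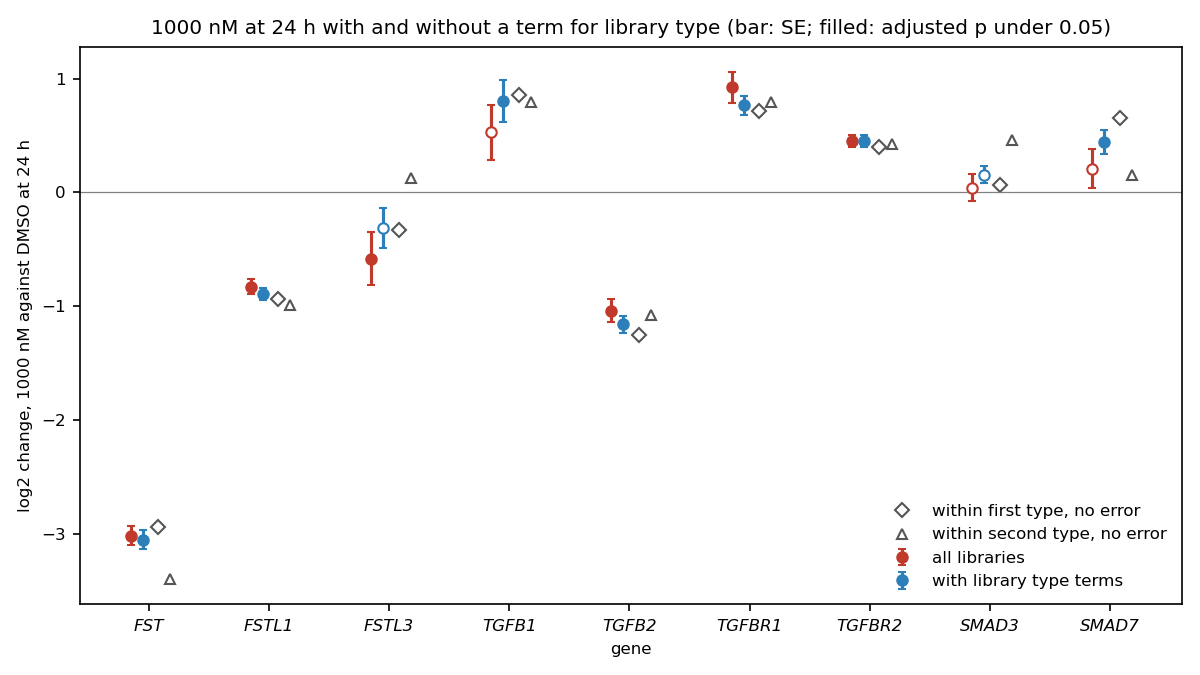
Log2 change at 1000 nM against DMSO at 24 h (y axis) for the 9 tested genes from all libraries, from the fit with library type terms (both with SE bars, filled where the adjusted p is under 0.05), and within the first and second types (open grey, no error). FST, FSTL1, TGFB2, TGFBR1 and TGFBR2 keep their direction and call, FSTL3 loses its call, and TGFB1 and SMAD7 gain one.

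The wider pathway was read from lists of other genes, chosen by name. Of 27 other ligands, 7 passed the filter on low values. None was called by limma at 1000 nM and 24 h (median log2 change -0.08), beside 34.7% of all genes. At an unadjusted p under 0.05 there was 1, beside 6767 of all 15866 genes. With library type terms 1 was called, higher, beside 47.5% of all genes. Of 16 other receptors and co-receptors 8 were tested, 3 were higher and 1 lower (median 0.18), beside 19.1% higher and 15.6% lower of all genes. TGFBR3, the co-receptor betaglycan, went from 2.62 ± 0.397 FPKM in DMSO (SD, n = 6) to 5.18 ± 0.381 (SD, n = 3; log2 change 0.87, adjusted p = 3.1e-09). BMPR2 and ACVR1, receptors mainly for BMP ligands, were higher by 0.80 and 0.49. RGMB, a BMP co-receptor, was lower by 6 h (-0.60, adjusted p = 4.6e-08) and at 24 h (-0.75).

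Among 22 other extracellular antagonists and proteins of the latent complex, which holds secreted TGF-beta inactive, 9 were tested, 2 were higher and 1 lower (median 0.18), near the share of all genes called (34.7%). THBS1, thrombospondin 1, which can activate latent TGF-beta, went from 151 ± 12.7 FPKM in DMSO (SD, n = 6) to 38.7 ± 2.94 (SD, n = 3; log2 change -1.95, adjusted p = 3.5e-29). It was lower at 6 h as well (-0.78, adjusted p = 5.7e-13). The latent TGF-beta binding protein LTBP1 moved the other way, from 9.55 ± 1.53 to 24.6 ± 2.12 FPKM (log2 change 1.33, adjusted p = 3.7e-17), with 0.20 and no call at 6 h. LTBP3 was higher by 0.91 (adjusted p = 0.010).

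Of 20 other SMADs and intracellular regulators 18 were tested, 5 were higher and 3 lower (median 0.12), beside 19.1% higher and 15.6% lower of all genes. TGIF2, a repressor of SMAD-driven transcription, differed by -0.77 and PMEPA1, a membrane protein that limits SMAD activation, by -0.47. PPM1A, a phosphatase reported to act on SMADs, differed by 0.48 and the ubiquitin ligase SMURF1 by 0.40, all called at 24 h.

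Genes known as targets of TGF-beta and SMAD signalling moved in both directions. Of 31 listed, 28 were tested, 9 were higher and 10 lower at 1000 nM and 24 h (median 0.12), beside 19.1% higher and 15.6% lower of all genes (median 0.03). The list shares LTBP2, PMEPA1, SKIL and SMAD6 with those above, and several of its genes are targets of other pathways too. CYR61 and CTGF, matricellular genes, had the largest changes, -4.15 and -3.66, with levels from 224 to 12.2 and from 83.7 to 6.18 FPKM. GADD45B, a stress-response gene, differed by -2.23. FN1, the gene of the matrix protein fibronectin, went from 75.5 ± 17.9 (SD, n = 6) to 207 ± 2.26 FPKM (SD, n = 3; 1.48, adjusted p = 1e-14). At 6 h CYR61, CTGF and GADD45B were the only called members of the list, all lower, where 2.01% of all genes were called, and FN1 had a change of 0.19 (adjusted p = 0.88). With type terms 13 targets were higher and 9 lower at 24 h (median 0.22), in a fit that called 47.5% of all genes (median 0.07).

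**Figure D4:**
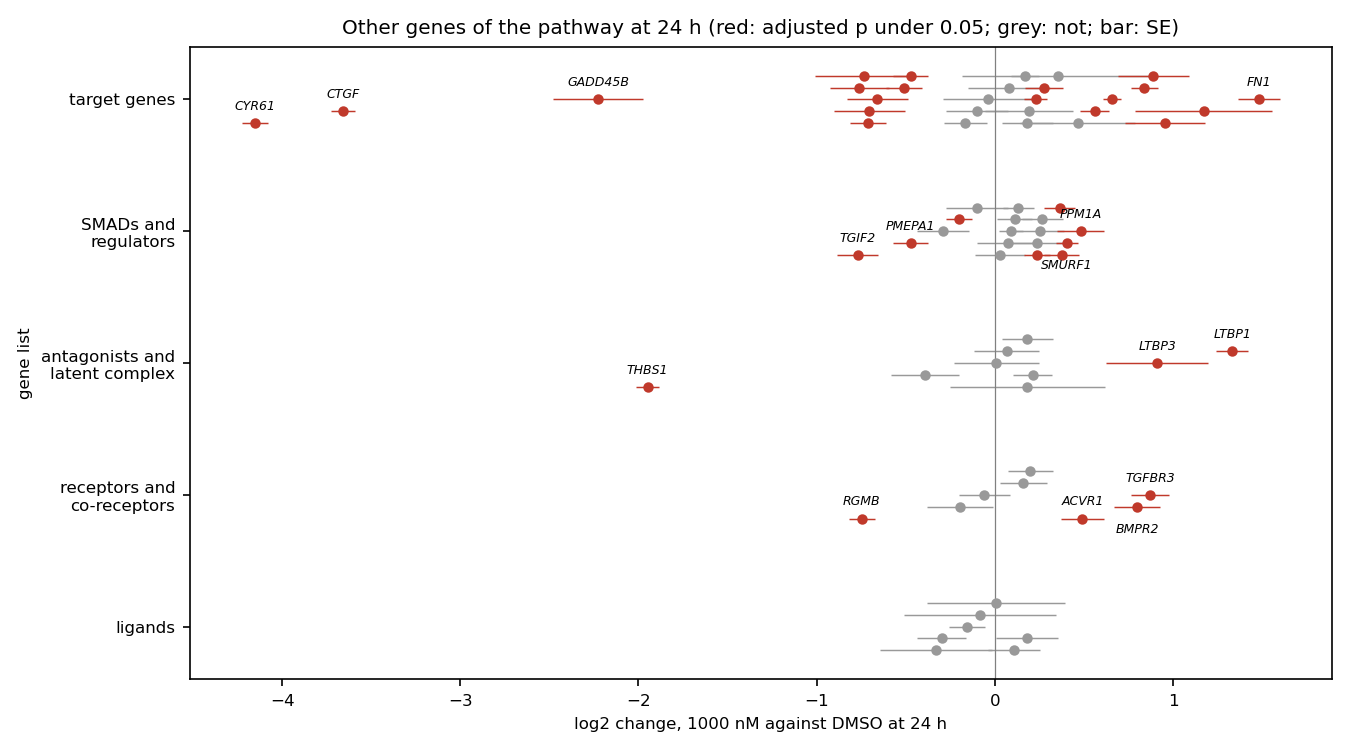
Log2 change at 1000 nM against DMSO at 24 h (x axis) of the tested genes in 5 lists of other pathway genes (y axis), red where the adjusted p is under 0.05 and grey where it is not, with SE bars and the genes with the largest changes named. Changes lie on both sides of 0 in every list, and none of the 7 other ligands is red, where 34.7% of all genes were called.

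For each member called at 1000 nM and 24 h, the 3 tested genes with the most similar course were taken by Pearson correlation over the 16 group means, which share libraries, depth and library types. FST was followed most closely by WWC1 (r = 0.995), POLR1E (0.988) and URB2 (0.984), and FSTL1 by RP11-312J18.5, EFEMP1 and PKP4 (0.980 to 0.983). For FSTL3 they were QSOX2, RRP12 and NOL6 (0.971 to 0.976), and for TGFB2 they were PHLDB2, WDR3 and MTCL1 (0.970 to 0.976). TGFBR1 was followed by SCARB2, STK17B and B3GNT5 (0.982 to 0.988) and TGFBR2 by ENDOD1, SEC31A and NMNAT2 (0.986 to 0.988). These values describe the 16 groups and carry no test.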

How the data were processed

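The authors deposited log2(FPKM + 1) values for 38342 gene names in 60 libraries. Per the submitters' processing notes, STAR 2.4.2a, featureCounts 1.4.6-p2 of Subread, DESeq2 and hg19 were used; the sources used here do not give the annotation. Libraries were poly(A), stranded and single-read, per the labels' protocols. FPKM had been assumed in the plan, so values were converted back to FPKM. All 1304094 values above 0 were within 0.01 read of a whole read (100%), giving depths of 0.475 to 86.5 M reads. No 2 of the 96 pairs of replicates agreed within counting noise (chi-square per degree of freedom 1.17 to 8.02). Genes reaching 1 FPKM in 3 or more libraries (15866 of 36114 above 0) were fitted with limma 3.58.1 (R 4.3.3; trend, robust) on log2(FPKM + 0.5), with 1 mean per group, 44 residual degrees of freedom and two-sided tests, in 22 comparisons. Adjustment (Benjamini-Hochberg) was over all tested genes within a comparison. The fit and the recovery of reads were tested on simulated data.

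The comparisons were each dose with DMSO of the same time, 1000 with 100 nM, dose steps at 24 h, changes of the 1000 nM effect between times, and DMSO at 24 h with 1 h. All 10 members are named, up to 4 called genes per other pathway list with the largest change at 1000 nM and 24 h, and 3 similar genes per called member. Members, lists and library types were chosen with earlier results of these data known. A target gene was left out of its list and is not reported here. Because hg19 was the submitters' build, gene coordinates from another build are given only for the promoter windows. Alternatives were a pseudocount of 0.1, no filter, median-of-ratios scaling, only the groups compared, library type terms, the first type only, libraries of at least 2 M reads, voom on recovered reads, and each library left out.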

Additional observations from a re-analysis of the deposited data

Results flagged for a closer look

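Of 40 sets of 6 DMSO libraries (10 genes at 4 times), 7 had a library whose gap to its nearest neighbour was above 0.625 of the range; chance gives this in about 1 in 20 sets. FST stood at 16.5 FPKM in DMSO 6 h replicate 5 and at 16.7 in DMSO 24 h replicate 2, both the highest of their sets. FSTL1 stood at 32.4 FPKM in DMSO 6 h replicate 1, the lowest, and at 46.4 in DMSO 24 h replicate 2, the highest. INHBA stood at 0.568 FPKM in DMSO 6 h replicate 5 (highest), TGFBR2 at 37.1 in DMSO 1 h replicate 4 (lowest) and SMAD3 at 13.8 in DMSO 24 h replicate 2 (lowest). DMSO 24 h replicate 2 has 0.475 M reads and is of the second library type, as is DMSO 6 h replicate 5; their part in these values was not tested.

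The effect of 1000 nM differed between successive times, by limma's test of the difference, for FST (-0.93 from 3 to 6 h and -1.75 from 6 to 24 h), TGFB2 (-0.83 from 3 to 6 h), FSTL1 (-0.72 from 6 to 24 h), TGFBR1 (0.56 from 6 to 24 h) and TGFBR2 (0.43 from 6 to 24 h). These values carry no term for library type. Within the first type the TGFBR1 effect was 0.42 at 6 h and 0.71 at 24 h, the latter from 1 treated library.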

How the results depend on the processing

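Against DMSO, FST and TGFB2 at 6 and 24 h and FSTL1, TGFBR1 and TGFBR2 at 24 h kept direction and call at every dose under all 18 alternatives. The number of members called at 1000 nM and 3 h was 1 in place of 0 without libraries under 2 M reads, with voom, and with voom and type terms together (the last chosen after seeing the data). At 6 h it was 4 in place of 2, at 100 and at 1000 nM, in the first type only and with voom and type terms. Over all genes the calls rose as well, from 137 to 535 and 723 at 100 nM and from 319 to 1222 and 1123 at 1000 nM; the cause was not tested. Leaving out 1 library gave 5 to 7 members at 300 nM and 24 h and 5 to 6 at the other doses. FSTL3 at 24 h gained a call at 300 nM in the first type only (-0.49, adjusted p = 0.012), with voom (-0.62, adjusted p = 0.010) and with voom and type terms (-0.61, adjusted p = 0.00026), and at 100 nM in the first type only (-0.35) and with voom and type terms (-0.41). A call was gained without DMSO replicate 5 for FSTL3 at 300 nM, 6 h (-0.78), without DMSO replicate 2 for FSTL3 at 300 nM, 24 h (-0.66), and without 300 nM replicate 2 (0.60) or DMSO replicate 3 (0.46) for SMAD7 at 300 nM, 24 h.

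Uncalled values near 0 changed sign: TGFB1 at 100 nM, 6 h (0.013, voom) and 1000 nM, 6 h (-0.019, first type only), TGFBR2 at 1000 nM, 6 h (-0.0036, first type only), SMAD3 at 300 nM, 24 h (-0.013 with voom, -0.011 with voom and type terms) and SMAD3 at 1000 nM, 24 h (-0.054 without libraries under 2 M reads, -0.057 with voom). Leaving out 1 library gave ranges across 0 for TGFB1 at 6 h (100 nM -0.14 to 0.19; 1000 nM -0.019 to 0.31), FSTL1 at 300 nM, 6 h (-0.081 to 0.00059), SMAD7 at 300 nM, 6 h (-0.055 to 0.18), TGFBR2 at 1000 nM, 6 h (-0.016 to 0.046), and at 1000 nM, 24 h for SMAD3 (-0.054 to 0.12) and SMAD7 (-0.029 to 0.36); the cause was not tested. Where 1 library of a dose was left in the first type, it was assumed to vary like the other groups.

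No paired analysis was possible because the replicate numbers are in accession order only. Depth limits INHBA, and FST at 300 and 1000 nM at 24 h. It also limits FSTL3, SMAD7 and TGFB1 at 24 h in libraries of the second type. DMSO replicate 2 held 6 FSTL3, 4 SMAD7 and 14 TGFB1 reads. At 1000 nM, replicates 1 and 3 held 30 and 35 FSTL3 reads and 20 and 25 SMAD7 reads.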

Other observations

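Further genes of the target list, picked after their values were seen, were called at 1000 nM and 24 h, some higher and some lower. CDKN1A, a cell cycle inhibitor gene, had a log2 change of 0.96 (SE 0.22) and ID1, an inhibitor of DNA binding, 1.17 (SE 0.38). The basement membrane collagen genes COL4A1 and COL4A2 had -0.71 and -0.71, and the transcription factor genes SNAI1 and SNAI2 had -0.73 and -0.51, all called.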
